A study of Mus musculus with 17 samples.

Results

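The proteasome genes of the mouse hippocampus were described across age. They were chosen by name alone, as the protein-coding genes whose symbol starts with Psma, Psmb, Psmc, Psmd, Psme, Psmf or Psmg, without the inducible catalytic subunits Psmb8, Psmb9 and Psmb10. This gave 47 genes of 38355 identifiers in the count tables. Polyadenylated RNA of hand-dissected hippocampus from untreated wild-type C57BL/6J mice was sequenced in 17 libraries. Mice of 3 months (3M, 5 libraries) and 24 months (24M, 6 libraries) were sequenced single-end. Mice of 3 months (3M, 3 libraries) and of 29 months (29M, 3 libraries) were sequenced paired-end and compared apart from the single-end set. The labels do not say whether the 3M mice of both sets were different animals. The sex of the mice is not given in the labels, and the 29M mice were bought at a younger age and aged further in the authors' rooms. The tissue holds neurons, glia and vessels together, so fewer cells of a type and less RNA per cell cannot be told apart.

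The proteasome is the barrel-shaped protease that degrades proteins tagged with ubiquitin. Its core particle (20S) is built of outer rings of alpha subunits (Psma), which gate the entrance, and inner rings of beta subunits (Psmb), of which Psmb5, Psmb6 and Psmb7 carry the proteolytic sites. The regulatory particle (19S) caps the barrel: a ring of ATPases (Psmc) unfolds the substrate, and non-ATPase subunits (Psmd) bind ubiquitin and remove it. Alternative caps (Psme), an inhibitor (Psmf1) and assembly chaperones (Psmg1 to Psmg4, Psmd5, Psmd9 and Psmd10) complete the system. In neurons the proteasome takes part in synaptic remodelling and in the clearance of damaged proteins, and its genes are studied in ageing for that reason.

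By role, the 47 genes comprised 8 alpha subunits, 8 beta subunits, 6 ATPases, 11 non-ATPase subunits, 6 activator and inhibitor genes and 7 assembly chaperones. The remaining gene, Psmc3ip, shares the symbol only: its product acts in meiotic recombination and is no proteasome subunit. Counts assigned to genes ranged from 19144461 to 28438296 in the 3M single-end libraries, from 9213474 to 19756411 at 24M, from 10977976 to 15054972 in the 3M paired-end libraries and from 10991389 to 13563541 at 29M. Proteasome genes took 0.282% to 0.323% of these counts. The 24M libraries 1 and 4 differed by less than counting noise and were used as 1 sample through their mean, so that n = 5 at 24M. In 1 of the 3M single-end libraries the summed level of 6 striatal markers was 395 CPM (reads of a gene scaled to a common library size), where the group's median was 135 CPM. The summed level of 4 choroid plexus markers was 2007 to 8304 CPM in the 3M single-end libraries and 4572 to 7688 CPM at 24M. That of 5 blood markers was 53.2 to 108 CPM at 3M and 76.3 to 544 CPM at 24M in the single-end set. In the paired-end set the blood markers were at 70.5 to 83.6 CPM at 3M and 75.7 to 165 CPM at 29M. The hippocampal neuron markers (6 of 6), the astrocyte markers (5 of 5) and the neuron markers (6 of 6) were detected in every group.

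Levels were compared between genes as CPM per kilobase of the annotated principal transcript. In the 3M paired-end libraries (n = 3) the genes of the core and of the 19S cap lay between 20.9 and 98.9 CPM per kilobase. The exceptions were Psma8 at 0.113 and Psmb11 at 0.0595, and the assembly chaperones lay below that range. The ATPase Psmc5 had the highest level with 98.9 ± 2.37 CPM per kilobase (SD). The catalytic Psmb5, Psmb7 and Psmb6 followed closely with 94.9 ± 3.58, 93.6 ± 2.73 and 91.5 ± 1.71 CPM per kilobase. The beta subunit Psmb4, which is not catalytic, lay among them at 91.7 ± 5.69. This spacing was not larger than the spread between libraries. The median per-kilobase level was 81.7 for the beta ring, 68.4 for the ATPases, 47.3 for the alpha ring and 46.4 for the non-ATPase subunits. The order depended on library type: in the 3M single-end libraries the medians were 64.3 for the ATPases, 60.6 for the beta ring, 52.2 for the non-ATPase subunits and 29.7 for the alpha ring. Psmb4 had the highest level there with 103 ± 5.76 CPM per kilobase, and Psmb5 was at 33.5 ± 1.39. Psma3 and Psma5, at 8.86 ± 0.511 and 10.8 ± 0.77, lay within the range of the assembly chaperones there, 7.06 to 14.1. In the 3M paired-end libraries the 7 assembly chaperones lay together between 8.52 and 10.9 CPM per kilobase. The proteasome activator subunit Psme3 was at 40.2 ± 1.78 CPM per kilobase, whereas the inhibitor Psmf1 was at 8.45 ± 0.231. Per-kilobase values of Psma2 and Psma3 rest on annotated transcripts of 2911 and 2846 bases, which are long beside the 766 to 1758 bases of the other alpha and beta subunits tested.

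**Figure D1:**
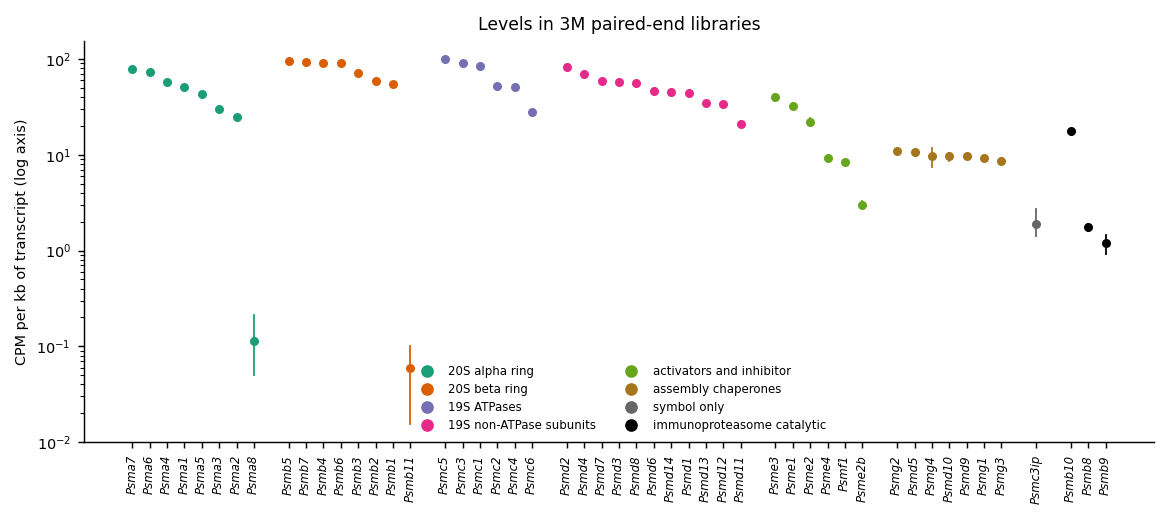
Level of each proteasome gene and of the inducible subunits Psmb8, Psmb9 and Psmb10 in the 3M paired-end libraries, as CPM per kilobase of transcript on a log axis. Points are means of 3 libraries and lines run from the lowest to the highest library. Subunits of the core and the 19S cap lie between 20.9 and 98.9, apart from Psma8 at 0.113 and Psmb11 at 0.0595, and assembly chaperones between 8.52 and 10.9.

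A pair of genes was too rarely read to be tested at either age. Psma8, the alpha subunit of the testis proteasome, had 1 to 8 counts in any library. Its counts were 1, 2 and 4 in the 3M paired-end libraries and 6, 7 and 6 at 29M, and 2 to 7 at 3M against 1 to 8 at 24M in the single-end set. Psmb11, the catalytic subunit of the thymus proteasome, had 1 to 9 counts per library. Its counts were 6 to 9 in the 3M single-end libraries and 1 to 5 at 24M, and the paired-end libraries held 1 to 5 at 3M and 2 or 3 at 29M. At these counts differences between ages were not assessed, and the other 45 genes were tested at both ages.

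Before ages are compared, the measured level of several proteasome genes depended on the kind of library. This comparison of the 3M libraries was chosen after the data had been seen. Library type, read length and any difference in mouse cohort cannot be told apart in it. CPM were scaled over all libraries here and within a library type elsewhere. Of 45 genes, 7 differed past the thresholds (edgeR quasi-likelihood test, Benjamini-Hochberg adjusted p of at most 0.05 and at least 0.5 on the log2 scale), and all 7 were higher in the paired-end libraries. Over all genes tested, 6.31% were higher by this rule and 1.07% were lower. Psma5 was read at 12.3 to 14.3 CPM in the 5 single-end libraries and at 53.2 to 56 CPM in the 3 paired-end ones, a log2 ratio of 2.05 ± 0.07 (SE; adjusted p = 1.2e-14, edgeR). Psmb3 was at 13 to 15.5 against 53.9 to 57.8 CPM (1.95 ± 0.07; adjusted p = 8.4e-15, edgeR). Psma3 was at 23.4 to 27.2 against 85.1 to 92.9 CPM (1.82 ± 0.07; adjusted p = 1e-13, edgeR). In none of these genes did the library types overlap.

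The catalytic Psmb5 was read at 28.7 to 32 CPM single-end and at 83.6 to 90.6 CPM paired-end, a log2 ratio of 1.55 ± 0.07 (SE; adjusted p = 6.52e-13, edgeR). The activator subunit Psme2 and its intronless copy Psme2b had log2 ratios of 1.39 ± 0.10 and 2.03 ± 0.22. Psma4 came last among the 7 with 0.62 ± 0.05. These genes share long stretches of sequence with other places in the genome. In Psma3, 85.6% of all 50-base windows of the coding sequence occurred unchanged in a transcript of another gene, in Psma5 79.1%, in Psmb3 70.7%, in Psme2b 70.2%, in Psme2 69.5%, in Psmb5 56.8% and in Psma4 39.0%. With windows of 100 bases the shares were 84.5% in Psma3, 48.7% in Psma5, 23.3% in Psmb3, 26.8% in Psmb5 and 49.7% in both Psme2 and Psme2b. The 6 genes with at least 50% of 50-base windows shared had log2 ratios of 1.39 to 2.05. The 11 genes above 0% and under 50% had ratios from -0.06 to 0.625 with a median of 0.26, and 1 of them, Psma4, passed both thresholds. The 28 genes with no shared window had ratios from -0.34 to 0.32 with a median of -0.06, and none of them passed both thresholds. Reads assigned to more than 1 place, which the authors' counting left out, were 22.9% to 26.6% of single-end and 10.8% to 12.7% of paired-end reads. Their part in the differences was not tested.

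The shared stretches are shown for the members with the largest ratios, each as a coding stretch from a single exon. The matching stretch of the copy stands below it, except for Psma3, where it is identical. A stretch holding a difference was chosen before an identical one where both existed, so the differences shown are not typical of the shared windows. Sequences are from the GENCODE M21 transcripts on GRCm38, written 5′ to 3′ on the strand of the gene, with bases that differ between the pair in capitals and positions counted from 1 at the left end. Psma3 (chr12:70983319-70983418, plus strand, exon 3) and the processed pseudogene Gm13835 (chr6:31142543-31142642, minus strand) are identical over these 100 bases.
Psma3: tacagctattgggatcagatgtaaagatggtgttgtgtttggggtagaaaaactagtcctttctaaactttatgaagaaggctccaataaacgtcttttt
Psma5 (chr3:108267793-108267892, plus strand, exon 5) differs from the processed pseudogene Gm8394 (chr10:85313860-85313959, plus strand) by T36C.
Psma5: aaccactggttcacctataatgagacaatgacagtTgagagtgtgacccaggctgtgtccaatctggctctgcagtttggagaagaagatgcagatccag
Gm8394: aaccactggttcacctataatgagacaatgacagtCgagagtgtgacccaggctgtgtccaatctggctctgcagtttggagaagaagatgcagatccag
Psmb3 (chr11:97703863-97703962, plus strand, exon 2) differs from the pseudogene AC114990.1 (chr16:21896584-21896683, plus strand) by G2A.
Psmb3: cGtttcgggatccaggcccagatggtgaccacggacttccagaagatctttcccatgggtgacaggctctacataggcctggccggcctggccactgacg
AC114990.1: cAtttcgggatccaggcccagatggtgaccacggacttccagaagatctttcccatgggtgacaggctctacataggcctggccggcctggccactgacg
Psmb5 (chr14:54617892-54617991, minus strand, exon 1, from the start codon) differs from the processed pseudogene Gm3375 (chr7:3181093-3181192, plus strand) by G6A.
Psmb5: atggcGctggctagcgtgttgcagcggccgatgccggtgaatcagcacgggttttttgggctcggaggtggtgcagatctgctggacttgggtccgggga
Gm3375: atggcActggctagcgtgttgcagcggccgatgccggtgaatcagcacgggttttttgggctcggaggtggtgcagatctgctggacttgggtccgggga
Psme2 (chr14:55588449-55588512, minus strand, exon 7) differs from Psme2b (chr11:48945695-48945758, minus strand) by A9G within these 64 bases.
Psme2: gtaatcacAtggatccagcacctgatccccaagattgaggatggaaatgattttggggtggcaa
Psme2b: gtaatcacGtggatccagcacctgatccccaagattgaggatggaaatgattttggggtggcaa

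Gm13835, Gm8394 and Psme2b, of the copies shown, were read less than the genes they match, and the count tables had no entry for AC114990.1 or Gm3375. Gm13835 had 28 to 46 counts over the 8 libraries of 3M mice, Gm8394 had 3 to 12 and Gm12989, another copy of Psma5, had 3 to 15. Psme2b, which is annotated as protein-coding, had 13 to 15 counts in single-end and 27 to 42 counts in paired-end libraries, against 157 to 197 and 248 to 297 for Psme2. Reads of such pairs are assigned with uncertainty. The ages are compared below within a library type, so both groups of each comparison have the same kind of library. Reads assigned to several places were 22.9% to 26.1% at 3M and 25.0% to 26.6% at 24M in single-end libraries. In paired-end libraries they were 11.4% to 12.4% at 3M and 10.8% to 12.7% at 29M. Their part in the age comparisons was not tested.

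**Figure D2:**
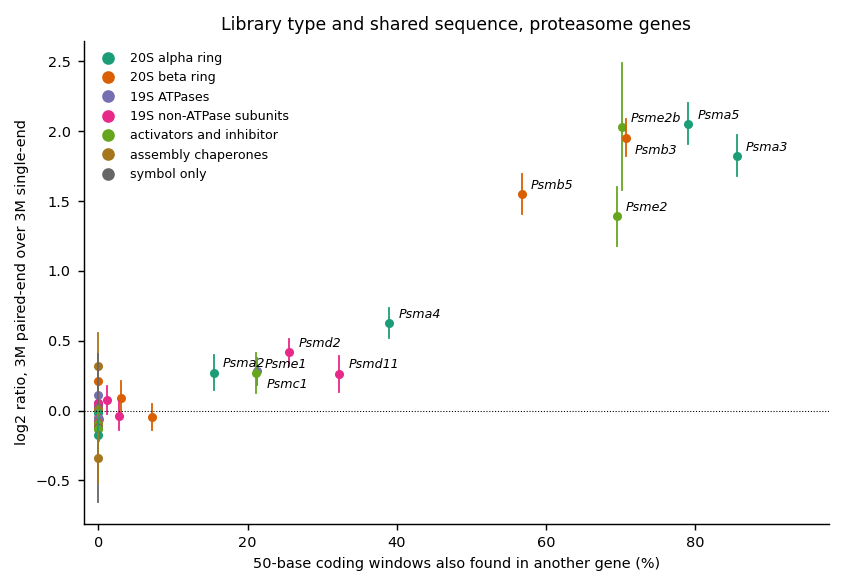
Each point is a proteasome gene, coloured by role. The horizontal axis gives the percentage of 50-base coding windows found unchanged in another gene, the vertical axis the log2 ratio of 3M paired-end (n = 3) over 3M single-end libraries (n = 5) with its 95% interval. The 6 genes past 50% lie at log2 ratios of 1.39 to 2.05, the 11 genes in between at -0.06 to 0.625 and the 28 genes at 0% between -0.34 and 0.32.

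The 24M mice were compared with 3M mice to find which proteasome genes change late in adult life. No proteasome gene passed the test: 0 of 45 were called (adjusted p of at most 0.05 and at least 0.5 on the log2 scale), where 1.98% of all 15683 genes tested were called. Without the fold threshold it was also 0 of 45, beside 5.58% of all genes. At an unadjusted p under 0.05, 2 genes were higher and 1 was lower (6.67%, against 26.1% of all genes), and DESeq2 called 0 genes by either rule. Fold changes were small in both directions: 23 genes lay above 0 (51.1%, beside 49.2% of all genes), the median log2 fold change was 0.03 and the range was -0.22 to 0.20. The groups overlapped in all 45 genes, whereas 6.57% of all genes had no overlap.

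The intervals show how large a change the edgeR fit leaves room for, and they do not cover the choice of processing. With offsets for GC content and transcript length, Psmc6 lay outside its interval of 0.05 to 0.35. Psmd14 lay outside its interval of -0.01 to 0.18. For 43 of 45 genes (95.6%) the whole 95% interval of the log2 fold change lay within 0.5 of 0, against 70.3% of all genes, and for 37 of 45 it lay within 0.25, against 32.3%. Replicates varied little, since the median coefficient of variation of the 45 genes was 4.84% at 3M and 5.85% at 24M, beside 9.95% and 8.77% over all genes. The wide intervals belonged to Psme2b, with 5 to 15 counts per library, and to Psmc3ip.

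Psmc6, an ATPase of the 19S ring, had the smallest p at 24M. Its levels were 60.0, 67.3, 71.8, 67.4 and 73.4 CPM at 3M and 84.9, 79.3, 68.2, 76.6 and 81.3 CPM at 24M, where the last value is the mean of 2 libraries. Of the 24M samples 4 lay above every 3M sample and 1 within their range. The log2 fold change was 0.20 ± 0.07 (SE) with an adjusted p of 0.0917 (edgeR). With offsets for GC content and transcript length it was -0.14 (adjusted p = 0.307, edgeR), and the adjusted p over all alternatives ranged from 0.0419 to 0.311.

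Psmd3, a scaffold subunit of the lid, was at 135, 122, 130, 124 and 117 CPM at 3M and at 109, 112, 123, 114 and 116 CPM at 24M. Of the 24M samples 4 lay under every 3M sample and 1 within their range, and the log2 fold change was -0.13 ± 0.05 (SE; adjusted p = 0.123, edgeR). The lid subunits Psmd12 and Psmd11 had log2 fold changes of 0.11 ± 0.05 and 0.11 ± 0.06. Psmd12 ranged from 65.6 to 73.2 CPM at 3M (median 66.7) and from 70.2 to 78.6 CPM at 24M. Psmd11 ranged from 49.6 to 53.5 CPM at 3M (median 51.1) and from 50.8 to 61.1 CPM at 24M. Psmd10, also called gankyrin, a chaperone of ATPase assembly, was at 13.3 to 16.1 CPM at 3M and at 14.3 to 16.3 CPM at 24M (0.16 ± 0.08). The adjusted p of these 3 genes lay between 0.190 and 0.229 (edgeR).

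In the proteolytic subunits the ranges of both ages overlapped. Psmb5, the chymotrypsin-like subunit, was at 29.8, 29.2, 32.0, 30.6 and 28.9 CPM at 3M and at 31.1, 23.5, 30.1, 27.5 and 28.5 CPM at 24M. Of the 24M samples 3 lay under the 3M range and 2 within it, and the log2 fold change was -0.10 (95% interval -0.26 to 0.06). Psmb6, the caspase-like subunit, was at 64.7 to 74.0 CPM at 3M and at 61.3 to 72.9 CPM at 24M (-0.05, interval -0.18 to 0.07). Psmb7, the trypsin-like subunit, was at 92.0 to 104 CPM and at 96.4 to 103 CPM (0.05, interval -0.05 to 0.15). Psmd14, the deubiquitinase of the lid that removes ubiquitin chains, was at 69.9 to 75.6 CPM and at 74.6 to 80.7 CPM (0.09, interval -0.01 to 0.18).

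By role, the median log2 fold change at 24M was 0.07 over 7 alpha subunits, -0.02 over 7 beta subunits, 0.01 over 6 ATPases, -0.02 over 11 non-ATPase subunits, 0.02 over 6 activator and inhibitor genes and 0.03 over 7 chaperones. Alpha subunits lay above 0 in 5 of 7 genes, and the largest of them was Psma1 with 0.11 ± 0.06. In every role 0 genes passed the test. Of the alternative caps, Psme4, the nuclear activator, had 0.14 ± 0.07 and Psme3 0.05 ± 0.04. Summed over the 45 genes, the samples held 2905 to 3040 CPM at 3M and 2872 to 3052 CPM at 24M.

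**Figure D3:**
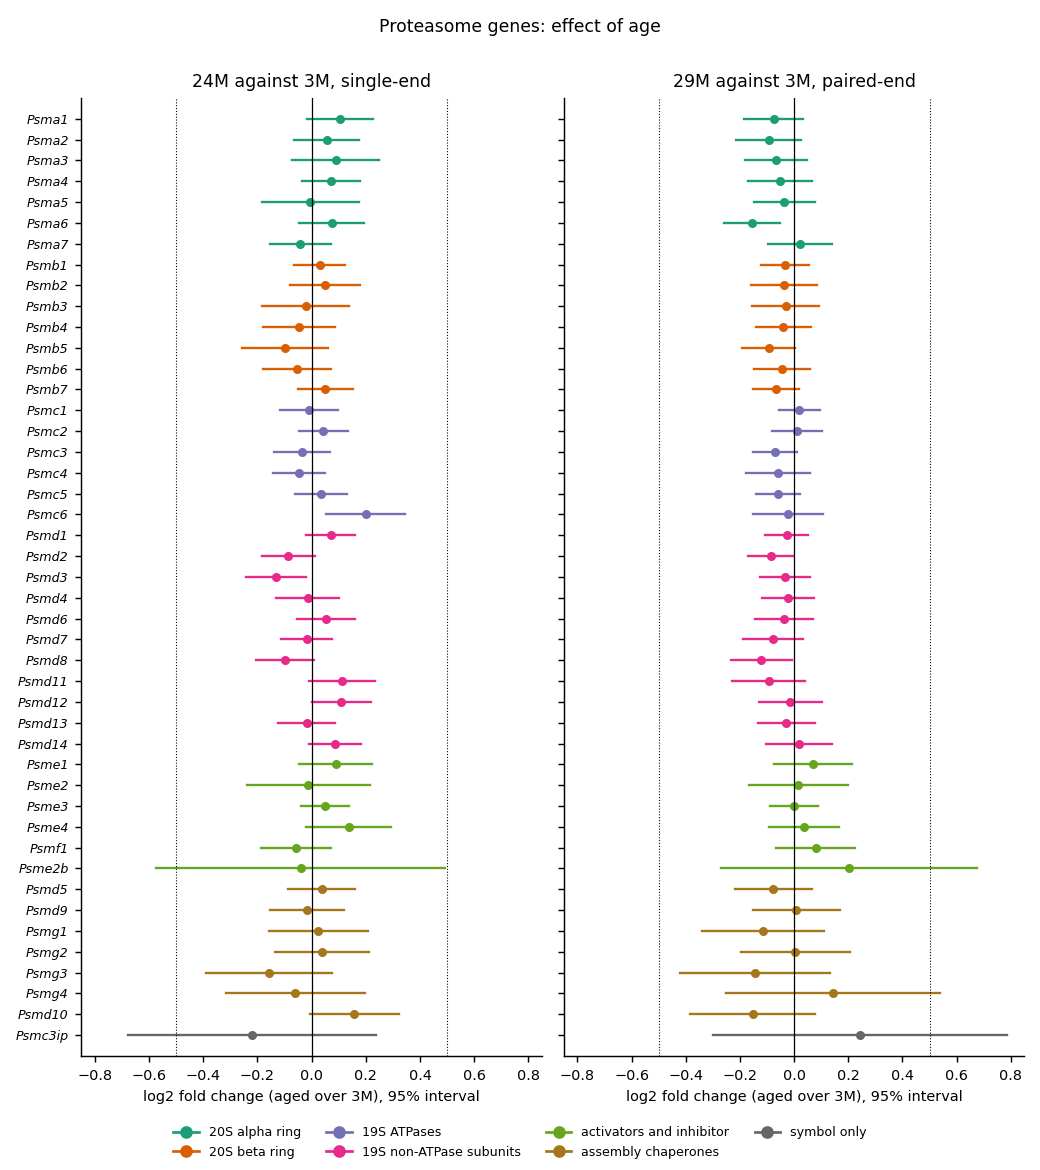
Log2 fold change of each tested proteasome gene with its 95% interval, at 24M against 3M in single-end libraries (n = 5 and 5) and at 29M against 3M in paired-end libraries (n = 3 and 3), coloured by role. The dotted lines mark 0.5 in either direction. Point estimates run from -0.22 to 0.20 at 24M and from -0.15 to 0.24 at 29M, and only the intervals of Psme2b, Psmc3ip and, at 29M, Psmg4 cross a dotted line.

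The 29M mice extended the comparison to very old age in the paired-end libraries. Again 0 of 45 genes were called, beside 1.45% of all 15097 genes tested, and 0 of 45 passed without the fold threshold, beside 2.99%. At an unadjusted p under 0.05, 0 were higher (9.86% of all genes) and 3 were lower (6.67%, against 7.48% of all genes), and DESeq2 called 0 genes by either rule. Here the small differences leaned to one side: 32 genes lay below 0 (71.1%, beside 50.6% of all genes), and the median log2 fold change was -0.04, beside -0.002 over all genes. All 29M samples lay under all 3M samples in 7 genes (15.6%, beside 10.6% of all genes) and above them in 0 (11.8%). These 7 were Psma1, Psma6, Psmb5, Psmc3, Psmd2, Psmd8 and Psmg1. The 45 genes were measured in the same 6 libraries, so they are not independent counts of a direction.

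Psma6, an alpha subunit of the core, had the smallest p at 29M. It was at 74.9, 74.4 and 78.2 CPM at 3M and at 68.4, 67.5 and 68.3 CPM at 29M, a log2 fold change of -0.15 ± 0.05 (SE; adjusted p = 0.109, edgeR). The groups were separate by more than the spread within either, although the adjusted p missed the threshold under every alternative (0.0919 to 0.396). Psmd8, a lid subunit, was at 91.5, 82.0 and 86.3 CPM at 3M and at 81.1, 81.8 and 75.9 CPM at 29M (-0.12 ± 0.05; adjusted p = 0.255, edgeR). Psmd2, the scaffold of the base that binds ubiquitin shuttles, was at 256, 240 and 239 CPM at 3M and at 229, 236 and 226 CPM at 29M (-0.09 ± 0.04; adjusted p = 0.256, edgeR). In both genes the gap between the groups was narrow beside the range within them.

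Psmb5 was at 88.5, 85.3 and 82.1 CPM at 3M and at 80.5, 79.9 and 79.2 CPM at 29M. Its log2 fold change was -0.09 and had a 95% interval of -0.19 to 0.004. The ATPase Psmc3 was at 149, 149 and 147 CPM at 3M and at 142, 136 and 146 CPM at 29M (-0.07, interval -0.15 to 0.01). Both had every 29M sample under every 3M sample by a small margin. Psmb6 was at 74.3, 71.6 and 73.0 CPM and at 69.3, 71.8 and 70.9 CPM (-0.05, interval -0.15 to 0.06). Psmb7 was at 111, 110 and 105 CPM and at 102, 103 and 106 CPM (-0.07, interval -0.15 to 0.02). Psmd14 was at 69.5, 68.8 and 68.7 CPM and at 73.8, 71.2 and 64.7 CPM (0.02, interval -0.10 to 0.14). In these 5 genes the 95% intervals stayed within 0.2 of 0, and the values of Psmd14 spread more at 29M than at 3M.

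By role, all 7 beta subunits, 6 of 7 alpha subunits and 10 of 11 non-ATPase subunits lay below 0, as did 4 of 6 ATPases and 4 of 7 chaperones, and 5 of 6 activator and inhibitor genes lay above 0. The median log2 fold change was -0.07 for the alpha ring, -0.04 for the beta ring, -0.04 for the ATPases, -0.03 for the non-ATPase subunits, -0.08 for the chaperones and 0.05 for the activators and inhibitor. Summed over the 45 genes, the 3M samples held 3236, 3174 and 3166 CPM and the 29M samples 3070, 3121 and 3098 CPM, so the sums did not overlap. In the same libraries the summed level of 5 astrocyte markers was 1549 to 1594 CPM at 3M and 1901 to 1934 CPM at 29M. Most of this came from Gfap, with means of 464.9 and 808.6 CPM, while Gja1 had 242 and 228 CPM and Slc1a3 630.2 and 637.4 CPM. Their part in the lower sums was not tested. For 42 of 45 genes (93.3%, beside 73.7% of all genes) the 95% interval lay within 0.5 of 0, and for 38 of 45 within 0.25 (44.2% of all genes). With offsets for GC content and length the median at 29M was -0.06, beside -0.03 over all genes.

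**Figure D4:**
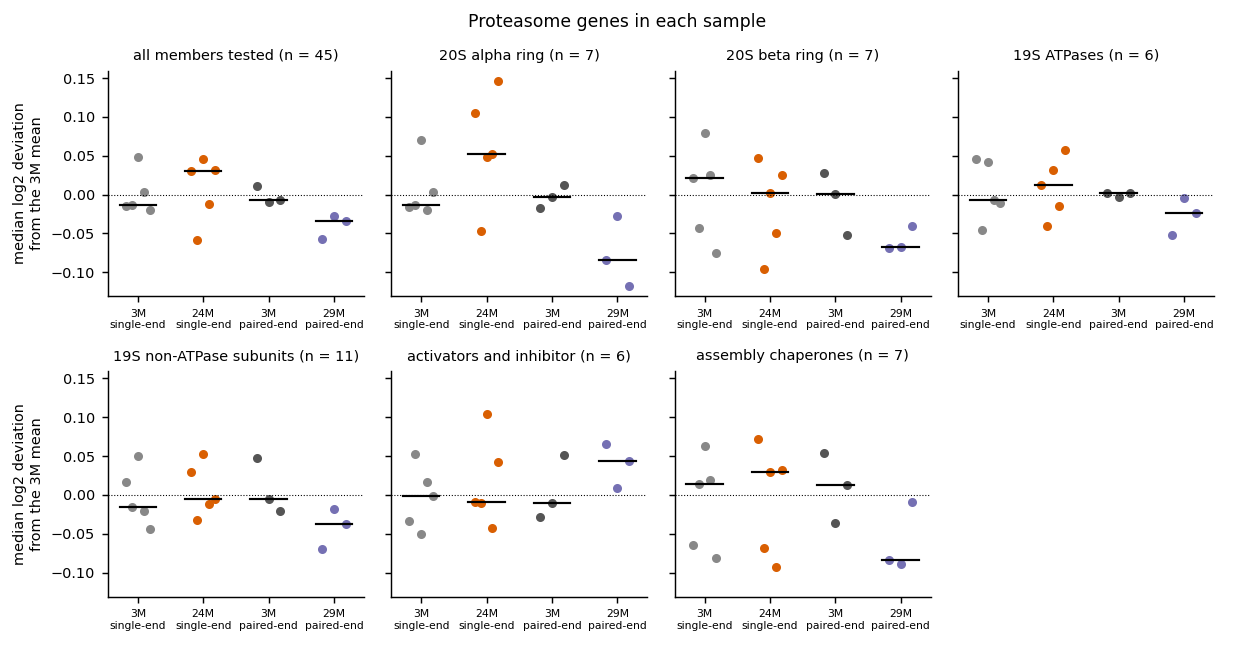
Median log2 deviation from the mean of the 3M samples of the same library type, for each sample, over all 45 tested genes and by role; horizontal bars are group medians. Over all genes the 29M samples lie at -0.03 to -0.06 under the 3M paired-end samples, while the 24M samples spread from -0.06 to 0.05 across the 3M single-end range.

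Whether the effect differed between the ages was tested directly, in a fit of all groups with an interaction term. Age, library type and mouse cohort vary together in this contrast, so they cannot be told apart in it. No proteasome gene passed (0 of 45 at an adjusted p of at most 0.05), nor did any of the 16055 genes tested (0%). At an unadjusted p under 0.05 there were 5 of 45 (11.1%, beside 10.4% of all genes), all with the lower value at 29M, and DESeq2 called 0. Of all genes at this threshold, 1007 had the lower value at 29M and 667 the higher. The smallest p belonged to Psma6, with 0.07 at 24M and -0.15 at 29M on the log2 scale, a difference of -0.23 ± 0.08 (SE; adjusted p = 0.392, edgeR). Psmd10 followed with 0.16 and -0.15, a difference of -0.32 ± 0.13 (adjusted p = 0.415, edgeR). Psmd11 had 0.11 and -0.09, a difference of -0.21 ± 0.09 (adjusted p = 0.421, edgeR). Each of these 3 genes was above 0 at 24M and below 0 at 29M.

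The inducible catalytic subunits, which replace Psmb5, Psmb6 and Psmb7 in the immunoproteasome of immune-activated cells, lie outside the group and were set beside it. Psmb8 was at 2.63, 3.01 and 3.05 CPM at 3M and at 6.46, 4.08 and 5.30 CPM at 29M, which is a log2 fold change of 0.87 ± 0.20 (SE; adjusted p = 0.0320, edgeR). All 29M samples lay above all 3M samples, but the call was lost with DESeq2 (adjusted p = 0.0653) and the adjusted p ranged from 0.00046 to 0.387 over the alternatives. It was also lost without any 1 of the 3M libraries (0.0776 to 0.0867) and without 29M library 1 (0.183) or 3 (0.115). At 24M the log2 fold change of Psmb8 was 0.63 ± 0.27 (adjusted p = 0.165, edgeR). Its 3M values were 2.45, 5.97, 2.65, 2.44 and 2.07 CPM, of which library 2 lay far above the others, and its 24M values were 6.14, 3.45, 3.95, 5.05 and 5.56 CPM. Without that 3M library the log2 fold change was 0.97 with an adjusted p of 0.0147 (edgeR), in a range of 0.0147 to 0.323 over the alternatives.

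Psmb9 was at 1.95, 1.70 and 1.26 CPM at 3M and at 3.19, 3.04 and 2.61 CPM at 29M (0.83 ± 0.23; adjusted p = 0.0754, edgeR). The groups did not overlap, and without a filter on low counts the adjusted p was 0.0288 (range over alternatives 0.0288 to 0.508). At 24M it was at 1.61 to 3.41 CPM against 1.32 to 3.94 CPM at 3M (0.27 ± 0.31). The highest 3M value was again that of library 2, and without it the log2 fold change was 0.65 with an adjusted p of 0.112 (edgeR); over the libraries left out in turn it ran from 0.111 to 0.648. For Psmb10 the log2 fold change was -0.10 ± 0.09 at 24M and 0.13 ± 0.08 in the oldest mice. Per kilobase, Psmb8 amounted to 1.64%, 1.95% and 2.05% of Psmb5 in the 3M paired-end libraries and to 4.43%, 2.82% and 3.69% at 29M. Psmb9 amounted to 1.02% to 1.55% of Psmb6 at 3M and 2.17% to 2.72% at 29M, and Psmb10 to 18.3% to 19.6% of Psmb7 at 3M and 20.8% to 23.8% at 29M. In the single-end libraries Psmb9 amounted to 1.09% to 3.37% of Psmb6 at 3M and 1.41% to 2.99% at 24M. There Psmb10 amounted to 19.3% to 23.2% of Psmb7 at 3M and 16.3% to 21.5% at 24M. Psmb8 amounted to 3.96% to 11.3% of Psmb5 at 3M and 7.25% to 10.9% at 24M. Single-end ratios to Psmb5 are not comparable with the paired-end ones, since Psmb5 itself was read lower in that library type. Of 6 microglial markers, 4 passed the test upward in the 29M and 3 in the 24M group (adjusted p of at most 0.05, edgeR), none downward, and their summed level was 251 to 256 CPM at 3M and 322 to 336 CPM at 29M, and in the single-end set 268 to 300 CPM at 3M and 326 to 352 CPM at 24M. Their part in the rise of Psmb8 was not tested.

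**Figure D5:**
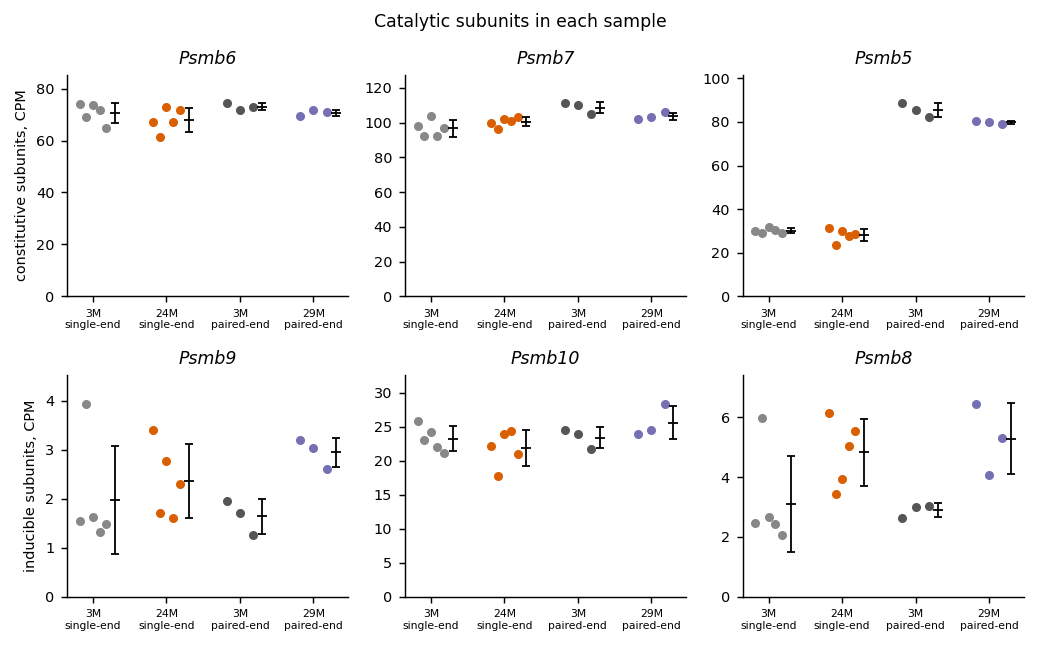
Level of the constitutive catalytic subunits Psmb6, Psmb7 and Psmb5 (upper row) and of the inducible subunits Psmb9, Psmb10 and Psmb8 (lower row) in each sample, as CPM on axes from 0; bars give mean ± SD. Psmb8 at 29M lies at 4.08 to 6.46 above its 3M paired-end values of 2.63 to 3.05, a call that some alternatives lost. Psmb5 lies at 82.1 to 88.5 in the 3M paired-end libraries and at 79.2 to 80.5 at 29M, and was not called (adjusted p = 0.307, edgeR).

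Genes that work with the proteasome but carry other symbols were followed as lists, counted at an adjusted p of at most 0.05 (edgeR) whatever the fold. Of 11 measured subunits and partners 0 passed at either age. The nearest was Usp14, the deubiquitinase that docks on the cap, whose 24M value was 0.21 ± 0.06 with an adjusted p of 0.0546 (edgeR), while its 29M value was -0.01 ± 0.04. Of 6 ubiquitin and E1 enzyme genes 0 passed, and the polyubiquitin gene Ubb had -0.09 ± 0.05 at 24M and -0.11 ± 0.04 at 29M. Of 9 shuttle and unfoldase genes 0 passed, among them the segregase Vcp with 0.01 ± 0.05 and -0.08 ± 0.04. Of 6 genes for transcription factors and processing enzymes of proteasome genes, 1 passed at 24M and 0 at 29M. This was Nfe2l2, which encodes the oxidative stress factor NRF2, and its fold change stayed under 0.5 on the log2 scale. It was at 20.6, 23.0, 18.5, 22.0 and 25.2 CPM at 3M and at 33.8, 25.6, 28.6, 25.9 and 26.9 CPM at 24M (0.37 ± 0.09; adjusted p = 0.0406, edgeR). The groups did not overlap, but the adjusted p rose above 0.05 in 11 alternatives, 8 of them with 1 library left out, and ranged from 0.00778 to 0.107. At 29M it was at 23.3, 21.6 and 26.6 CPM against 18.6, 22.3 and 20.2 CPM at 3M (0.23 ± 0.09; adjusted p = 0.230, edgeR). Nfe2l1, whose product drives proteasome genes when proteasome activity is lost, had -0.03 ± 0.04 and 0.02 ± 0.03.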

How the data were processed

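Hippocampal RNA of 17 libraries was analysed. The authors aligned reads with STAR 2.3.0 to GRCm38.p2 and counted them with HTSeq. The deposited values are raw counts per gene; the annotation used for counting was not given in the sources used here. Of all reads, 23.9% to 40.3% were counted for no gene and were left out. These included reads outside any annotated gene, which were 8.59% to 15.9% of all reads. They also included reads assigned to several places, at 22.9% to 26.6% in single-end and 10.8% to 12.7% in paired-end libraries. Of 38355 identifiers, 36602 were named from GENCODE M21 (GRCm38). The members and lists were chosen with earlier results of these data known.

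Within each library type, a quasi-likelihood test of edgeR 4.0.16 (TMM scaling, low counts removed by its default filter, R 4.3.3) was used, with Benjamini-Hochberg adjustment over all genes tested. The standard error is the size of the log2 fold change over the square root of the F statistic. CPM were scaled by TMM within a library type, or over all libraries where library types were compared. DESeq2 1.42.0, other scalings, filters, offsets and blocks were alternatives. Scripts were tested on simulated data. Over 136 pairs of libraries, the squared difference of counts relative to counting noise was 0.406 for 24M libraries 1 and 4 and at least 1.23 otherwise, so their rounded mean was used. No label ties a library to a single animal, so p-values measure the spread between libraries.

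Named with sample values are the 5 members of smallest p in each comparison, the 3 of smallest p for the contrast of ages, Psmb5, Psmb6, Psmb7, Psmd14, untested members, the inducible subunits and list genes at an adjusted p of at most 0.05. Genes named between library types were chosen after their values were seen. Of the lists, Paaf1 was not matched. Shared windows were counted against GENCODE transcripts of genes outside the member's locus.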

Additional observations from a re-analysis of the deposited data

Results flagged for a closer look

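In groups of 5 samples, a sample was looked at again when its gap to the nearest other sample took more than 0.71 of the group's range; chance gives about 1 in 20 groups. Of 102 groups (51 genes in 2 single-end groups), 8 had such a sample. At 3M, Psma1 in library 3 was 78.5 CPM where the others were 68.7 to 70.5 (gap share 0.817), Psmd6 in library 3 was 75.4 where the others were 70.9 to 71.9 (0.776), and Psmc4 in library 1 was 81.8 where the others were 77.9 to 78.8 (0.773). At 24M, Psmd10 in library 5 was 14.3 CPM where the others were 15.9 to 16.3 (0.8), Psmd8 in library 3 was 81.5 where the others were 90.1 to 92.8 (0.765), and Psme3 in library 2 was 116 where the others were 123 to 126 (0.72).

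The inducible subunits gave the widest gaps. In 3M single-end library 2, Psmb8 was 5.97 CPM where the other 4 were 2.07 to 2.65 (0.853), and Psmb9 was 3.94 CPM where the others were 1.32 to 1.62 (0.886). Psmb10 in the same library was 23.1 CPM, within its group's range of 21.1 to 25.8.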

How the results depend on the processing

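The counts of members called were 0 at both ages under every alternative run, and so were those for the difference between ages. Without the fold threshold, 1 gene (Psmc6) was higher at 24M in 1 fit of all 4 groups, without 24M library 5 and without 3M library 5, and without 3M library 5 1 gene (Psmd3) was lower; over the libraries left out in turn these counts ran from 0 to 1. The median log2 fold change ran from 0.00197 to 0.0368 at 24M and from -0.0466 to -0.0288 at 29M over the libraries left out. Offsets for GC content and length moved it to -0.0108 and -0.057, and to -0.0566 at 29M with the replicate block as well. Over all genes the median with offsets was -0.011 at 24M and -0.0301 at 29M, and -0.0298 at 29M with the replicate block as well. With the offsets the log2 fold change at 24M turned to -0.135 for Psmc6, -0.00644 for Psmd12, -0.00426 for Psmd10, 0.00601 for Psmb6 and -0.0556 for Psmd14; the cause was not tested. With offsets and replicate block it was -0.141 for Psmc6, -0.00901 for Psmd10, 0.0166 for Psmb6 and -0.0791 for Psmd14. Psmd14 at 29M ran from -0.0237 (without 29M library 1) to 0.0721. The number of genes past the thresholds between library types was 7 to 8 in all alternatives.

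Samples with the same replicate number did not deviate together (correlations of -0.17 to 0.05 at 24M and -0.07 to 0.10 at 29M, and 1 of 8 numbers had its own as best partner), so they share only a number. With the replicate block 0 genes were called at either age, and the median was 0.0252 at 24M and -0.0349 at 29M. Depth limits Psma8 and Psmb11, with at most 9 counts per library.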

Other observations

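Some genes of the fixed lists that work with the proteasome also differed between library types at 3M. Among those higher in paired-end libraries past the thresholds, the ubiquitin genes Rps27a and Ubb had log2 ratios of 6.22 and 2.05, the cap subunit Adrm1 2.50, the segregase Vcp 2.40 and the transcription factor subunit Nfyc 1.23. Rps27a was read at 1.61 to 2.41 CPM single-end and at 152 to 166 CPM paired-end, and Vcp at 53.1 to 59.5 against 283 to 299 CPM. Shared windows were not counted for these genes.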
